A study of Mus musculus with 2 samples.

Results

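The integrin subunits described here were the 10 genes Itgam, Itgb2, Itgb1, Itga6, Itgb5, Itgav, Itgal, Itga4, Itga9 and Itgb3, chosen by symbol from the 32285 genes of the 12 deposited cluster tables. All 10 symbols were present. They came from single EYFP+ cells sorted from the dentate gyrus (DG) of adult mice after inducible knockdown (iKD) of Vegfa under the Nestin promoter. Both genotypes carried NestinCreERT2+/- and ROSA-LoxSTOPLox-EYFP+/+ and received tamoxifen (TAM) for 5 d. Wild types (WT) were Vegfa wt/wt and iKD mice were Vegfa lox/lox, so that Cre, the EYFP reporter and TAM were shared by the controls. The mice were littermates of 7 to 10 wk and cells were taken 21 d after TAM. Cells of 5 mice of both sexes were pooled into a single 10x Genomics library per genotype. With 1 library per genotype there was no test between genotypes, and differences between pools, litters or captures cannot be told apart from genotype. The WT library held 5543 cells and the iKD library 5261, with medians of 8051 and 7080 unique molecular identifiers (UMIs) per cell, and they shared 9 cell barcodes.

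Integrins are heterodimers of an alpha and a beta subunit that span the plasma membrane and hold cells to matrix proteins or to other cells. Talin and kindlin bind the beta tail from inside and switch the pair to its ligand-binding state. In the brain, Itgam with Itgb2 forms complement receptor CR3 of microglia, whereas pairs with Itgb1 or with Itgav bind laminin, fibronectin, vitronectin and latent TGF-beta.

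The deposited cluster names were kept as labels only, because the markers in the cells went against them. In the 6 clusters named qNSC1, qNSC2, aNSC, NSPCs, IPC1 and IPC2, 10 of 10 microglia markers (Cx3cr1, P2ry12, Tmem119, C1qa and others) were found in over 50% of cells, with a median of 99.98%. The 9 markers of neural stem cells (among them Sox2, Hopx, Gfap and Nes) had a median of 0.335% of cells and none passed 50%. Granule neuron markers had a median of 0.698% and markers of intermediate progenitors and neuroblasts 0.0558%. Border macrophage markers, which separate these macrophages from microglia, had a median of 0.0419% and those of monocytes, neutrophils and lymphocytes 0.00698%. In the cluster named Astrocytes, 8 of 8 choroid plexus markers passed 50% of cells. Vegfa itself was near the detection limit in the 6 clusters, with 74 UMIs in WT and 36 in iKD cells. Its level was 0.0226 (0.0177 to 0.0284) in WT and 0.0137 (0.00962 to 0.0190) in iKD per 10000 UMIs. The reads lay at the 3′ end of transcripts, so that they need not report on a deleted part.

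The values below are levels, the mean over cells of UMIs of a gene per 10000 UMIs of the cell. Brackets give 95% intervals, exact Poisson for levels and exact binomial for shares, and they cover counting error only. UMIs of a 3′ library count molecules, and levels were not scaled by the length of transcripts or genes. Capture can differ between genes, and ratios of IN2 over other clusters ranked with gene length, as given below.

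The upstream sequences of the pair with the highest levels, Itgb5 and Itgam, show how unlike their starts are. RefSeq promoters of build GRCm38.p6 were at hand for 6 of the 10 genes (Itgam, Itgb1, Itgav, Itga4, Itga9 and Itgb5). The 100 bases before the start site were searched on both strands for GAGGAA, the core of sites bound by the myeloid factor PU.1, which reads TTCCTC on the other strand. Capitals mark the matches.
Itgam, chr7:128062540-128062639, plus strand: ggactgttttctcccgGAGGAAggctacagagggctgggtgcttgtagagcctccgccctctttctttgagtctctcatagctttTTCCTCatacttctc
Itgb5, chr16:33829565-33829664, plus strand: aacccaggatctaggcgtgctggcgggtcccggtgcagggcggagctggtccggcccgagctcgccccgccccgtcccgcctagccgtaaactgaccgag
The Itgam stretch held 2 matches, starting at -84 and -15 from the start site, and the Itgb5 stretch held none. Itgb1 and Itgav had a match, so that 3 of 6 members did, beside 9.82% of 32851 promoters of the same window. A match is a description of letters and not a site.

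Itgb5 and Itgam were the most abundant members. Itgb5, the beta subunit that pairs with Itgav on vitronectin, had a level of 13.2 (13.1 to 13.3) in WT and 12.5 (12.4 to 12.6) in iKD cells of the 6 clusters. Itgam, the alpha subunit of CR3 also known as CD11b, had 6.07 (5.98 to 6.16) and 6.31 (6.22 to 6.41). Both genes were found in nearly every cell. With each cell thinned to 4500 UMIs, Itgb5 had a UMI in 99.1% of the 9953 cells of the 8 clusters qNSC1 to NB, and 5 or more in 62.7%. Itgam had a UMI in 91.7%.

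A middle group held Itga6, the alpha subunit of laminin receptors, Itgb1, the common beta subunit, Itgav, the alpha subunit for vitronectin and latent TGF-beta, Itga9, which binds tenascin and osteopontin with Itgb1, and Itgb2, the beta subunit of leukocytes. Their levels over both genotypes in the 8 clusters were 3.39 for Itga6, 2.80 for Itgb1, 2.41 for Itga9, 2.39 for Itgav and 1.54 for Itgb2. Shares of thinned cells with a UMI followed the same order, with 73.5% for Itga6, 69.7% for Itgb1, 61.9% for Itga9, 61.7% for Itgav and 48.7% for Itgb2.

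Itgb3, the other beta partner of Itgav, was rare, with a level of 0.332 and 13.4% of thinned cells. Itga4 and Itgal, the alpha subunits that recirculating leukocytes use on endothelium, were near the detection limit. Itga4 had 104 UMIs over 10292 cells of the 8 clusters and Itgal had 5. Itga4 had a UMI in 0.768% of these cells, with 3.39% in qNSC2 and 1.64% in aNSC. In the Astrocytes cluster it had a UMI in 1 of the 134 cells (0.746%). As this rests on 1 cell of a cluster that also held microglia markers, it cannot set a background for Itga4. Of the 79 cells with an Itga4 UMI, 77 had at least 8 of the 10 microglia markers. A border macrophage marker was found in 11.4% (5.34 to 20.5) of these 79 cells and in 3.52% (3.17 to 3.89) of the 10213 others, at median depths of 7710 and 7622 UMIs. The cells of the Astrocytes cluster, which should lack leukocyte integrins, had after thinning an Itgb5 UMI in 33.3%, Itgam in 23.1%, Itgb2 in 10.2% and Itgb3 in 0.926% of 108 cells, at a median depth of 7722 UMIs. Microglia markers had a median of 42.9% of cells in that cluster. Itgb5, Itgam, Itgb2 and Itgb3 were thus found more often in the 8 clusters than there. Their shares in that cluster cannot set a background either.

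**Figure D1:**
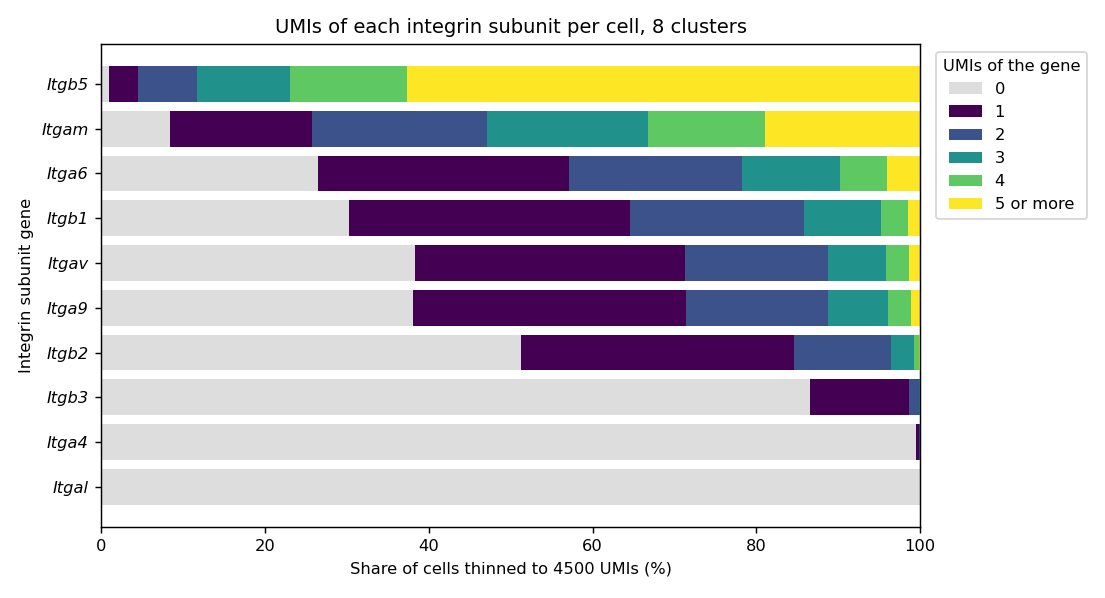
Share of the 9953 cells of the 8 clusters (x axis, percent) with 0 to 5 or more UMIs of each integrin subunit (y axis) after thinning to 4500 UMIs per cell, both genotypes together. Itgb5 had no UMI in 0.864% of cells and Itgb3 in 86.6%.

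The thinned cells held UMIs of a median of 5 of the 10 subunits, and 0 of 9953 cells held none, which allows a share of up to 0.0301%. The known heterodimers were therefore counted in single cells. In the 6948 thinned cells of the 6 clusters, both subunits of the Itgav Itgb5 pair were found in 60.6% (59.4 to 61.7) and of CR3, Itgam with Itgb2, in 45.1% (43.9 to 46.3). With Itgb1, the shares were 49.6% for Itga6, 42.0% for Itgav and 41.5% for Itga9. The pairs of rare subunits were found less: Itgav with Itgb3 in 8.16%, Itga4 with Itgb1 in 0.417% and Itgal with Itgb2 in 1 cell. Each share lay near the product of its 2 single shares, for example 45.0% for CR3 and 60.4% for Itgav with Itgb5. Correlations over these cells were between 0.00166 and 0.0399. In these sparse counts, the members were thus found together about as often as their single shares set.

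The spread among cells was taken within a cluster and genotype. The variance over the mean of thinned UMIs, which is 1 for pure counting, had medians over 16 groups between 1.04 for Itgb2 and 1.45 for Itgb5 among the 8 more abundant subunits. It was above 1 in each of the 16 groups for Itgb5, from 1.31 to 1.79, for Itga6, from 1.21 to 1.55, and for Itgam, from 1.14 to 1.72. Itgav was above 1 in each of the 16 groups as well, from 1.04, and reached 2.57 in a single group.

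Levels varied between clusters less than 2-fold for most members. The genes took part in the authors' clustering, so these differences are a description. NB was highest for 5 members: Itgam at 7.64 (7.43 to 7.85), Itga6 at 4.09 (3.94 to 4.25), Itgb1 at 3.34 (3.20 to 3.48), Itgav at 2.70 (2.57 to 2.83) and Itgb3 at 0.414 (0.366 to 0.466). The cluster qNSC2 was highest for Itgb5 at 13.8 (13.4 to 14.2), Itgb2 at 1.73 (1.60 to 1.87) and Itga4 at 0.0616 (0.0386 to 0.0932), and eNB for Itga9 at 2.72 (2.64 to 2.79). At the other end, qNSC1 was lowest for Itgam at 4.57 (4.31 to 4.85), Itga6 at 2.38 (2.19 to 2.58), Itgb5 at 11.3 (10.8 to 11.7) and Itga9 at 1.37 (1.23 to 1.54). In qNSC1, Itgb1 was instead at 3.22, second to NB.

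**Figure D2:**
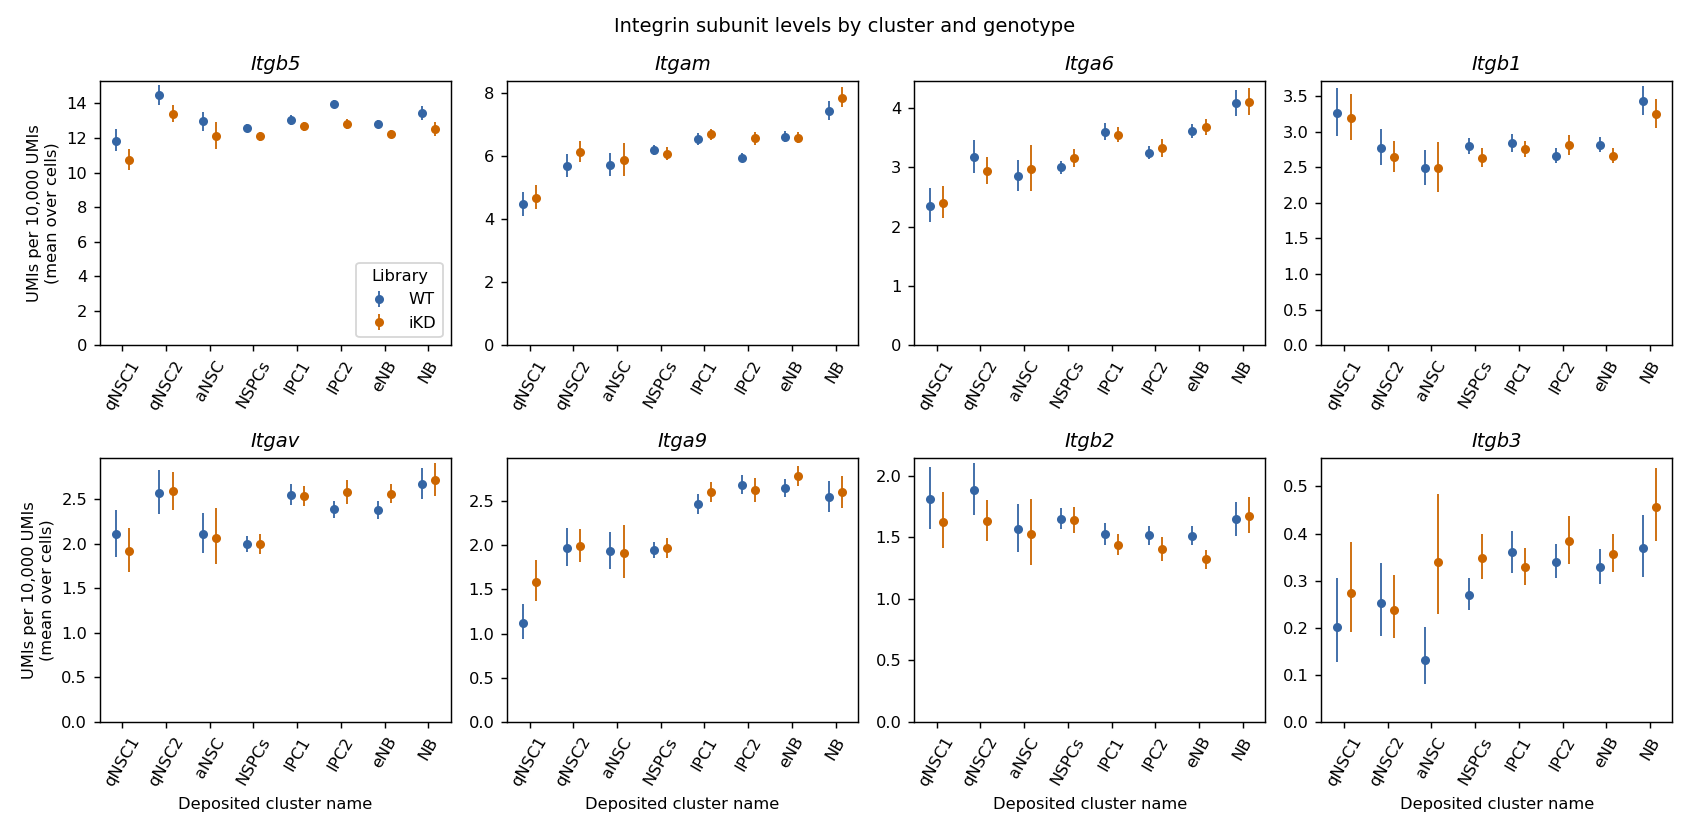
Levels (y axes, mean UMIs per 10000 UMIs) of 8 integrin subunits in the 8 clusters (x axes, deposited names), with WT and iKD libraries as blue and orange points and bars as exact Poisson intervals of counting. Itgam, Itga6 and Itga9 were lowest in qNSC1 over both libraries.

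Most neighbours in the order of clusters could not be told apart. Of 63 neighbouring pairs over the 9 members that reached a level of 0.05 in a cluster, the intervals of 50 overlapped. For Itgb2, Itgb3 and Itga4 all 7 neighbours overlapped. For Itgam, NB stood above IPC1 at 6.61, eNB at 6.59 above IPC2 at 6.19, and aNSC at 5.77 above qNSC1. For Itga6, NB stood above eNB at 3.64, IPC1 at 3.57 above IPC2 at 3.28, IPC2 above NSPCs at 3.06, and aNSC at 2.89 above qNSC1. For Itga9 the 8 clusters split into a group from 2.54 in IPC1 to 2.72 in eNB, a group from 1.92 in aNSC to 1.98 in qNSC2, and qNSC1.

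The highest cluster was at least 2-fold above the lowest for 2 of the 9 members, beside 24.0% of 10821 genes at that level. These were Itga4 at 7.65-fold, with 22 UMIs in qNSC2 and 2 in qNSC1, and Itgb3 at 2.02-fold, from 0.414 in NB to 0.205 in aNSC. Itga4 reached the level of 0.05 only in the cluster where it was high, so its spread was set in part by that limit. The median fold of the 9 members was 1.67 and that of all genes 1.58. The narrowest spreads were 1.22-fold for Itgb2 and 1.23-fold for Itgb5. WT and iKD cells had the same highest cluster for 6 of the 10 genes and the same lowest cluster for 6.

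Outside these 8 clusters, the 50 cells of IN1 had Itgb5 at 12.8 and Itgam at 6.56, and the 40 cells of Undefined 10.1 and 4.85. The other clusters stood apart in markers or depth. In the Astrocytes cluster, whose cells had choroid plexus markers, the 130 iKD cells had levels of 2.49 for Itgb5 and 1.05 for Itgam. The 4 WT cells there had no UMI of any member. In IN2, with a median of 3102.5 UMIs per cell, Itga9 was at 4.93 (4.51 to 5.39), 2.05 times its level in the 8 clusters, whereas Itgb2 was at 0.617 (0.477 to 0.787), 0.402 times its level. The summed level of the 10 microglia markers in IN2 was 141 in WT and 124 in iKD cells, and 406 and 397 in the 8 clusters. How far depth or other cells set the IN2 values was not tested.

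In IN2 the members ranked roughly by the length of their genes. Itga9 spans 294 kb and had a log2 ratio of IN2 over the 8 clusters of 1.03. Itgb2, the shortest member at 35.5 kb, had -1.30. Between them lay Itgb3 at 62.5 kb with 0.75, Itgav at 82.5 kb with 0.38, Itgb5 at 120 kb with 0.28, Itga6 at 113 kb with 0.28, Itgam at 55.9 kb with -0.11 and Itgb1 at 47.5 kb with -0.43. Spearman's rho over these 8 genes was 0.79, a description over genes of the same libraries. The same measure over 9975 genes with a known length was 0.70, so that genes at large ranked the same way. For genes of at least 100 kb the median log2 ratio was 0.91 and for genes under 20 kb -0.76.

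**Figure D3:**
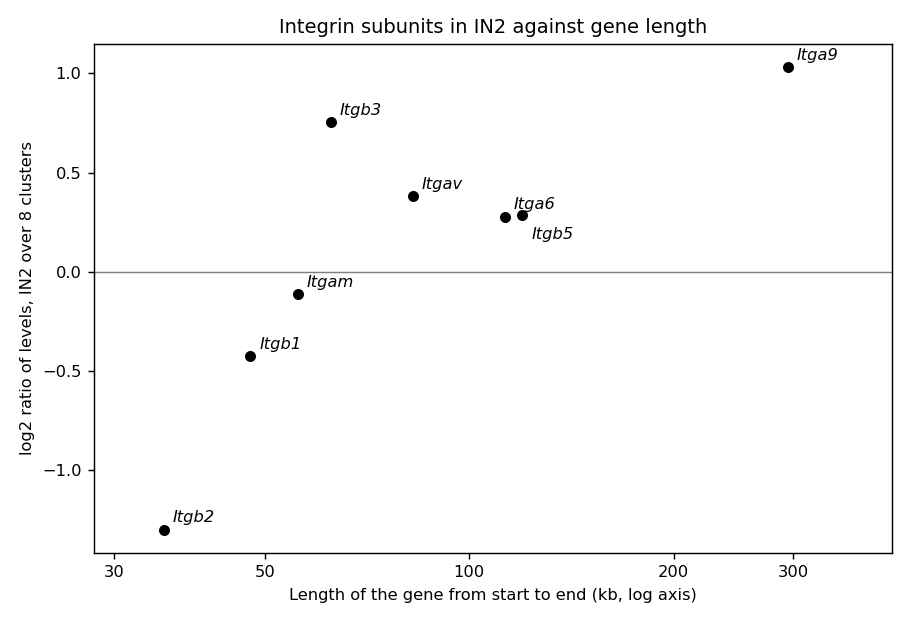
Log2 ratio of the level in IN2 over that in the 8 clusters (y axis) against the length of the gene from its start to its end in kb (x axis, log scale) for 8 integrin subunits, both genotypes together. Itga9, the longest gene, was highest at 1.03 and Itgb2, the shortest, lowest at -1.30.

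The members were compared by their pattern over 18 points, 9 clusters (the 8 and IN2) in both genotypes. Itga6 and Itga9 ran together with a Pearson r of 0.86, Itga6 and Itgav with 0.81 and Itga6 and Itgam with 0.81. Itgb2 ran with Itgb1 at 0.73 and against Itga9 at -0.84. The r of Itgam was -0.03 with Itgb2, 0.07 with Itgb1, 0.25 with Itgb5 and 0.50 with both Itgav and Itga9. Itgb5 and Itgav were at 0.73. No grouping of the members was computed. The points share cells' libraries and depth, and IN2 lay at an end of most of these ranges, so r is a description. Of the 3857 genes at a level of 0.5 or more, the most alike to Itgb2 were the ribosomal protein genes Rpl22 with r of 0.99, Rpl6 and Rps15a. The gene most alike to Itgb1 was Lcp1, an actin bundler of leukocytes, with 0.96. For Itga9 it was Tnrc6b with 0.98, for Itga6 Lrba with 0.94, for Itgam Rps6ka1 with 0.93 and for Itgb5 Tbc1d9 with 0.90.

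The study compared iKD with WT cells to look for changes in the sorted cells themselves after loss of VEGF. In the 6 clusters named for NSCs and IPCs, with their cells pooled, the integrin subunits were at nearly the same level in both libraries. Of the 8 members with a level of at least 0.05, 3 were lower in iKD by any amount and 5 higher, beside 45.0% of 10172 genes that were lower. No member was lower by a log2 ratio of 0.25 or more, beside 2.99% of genes, and no member was higher by it, beside 3.43%. The median log2 ratio was 0.03 for the members and 0.01 for all genes at that level.

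Of the alpha subunits at that level, Itgam had an interval above 0, and those of the 3 others held 0. The log2 ratio was 0.06 (0.03 to 0.09) for Itgam, 0.05 (-0.0031 to 0.10) for Itgav, 0.03 (-0.01 to 0.08) for Itga6 and 0.03 (-0.02 to 0.08) for Itga9. Of the beta subunits, Itgb5 was lower at -0.08 (-0.10 to -0.06), as was Itgb2 at -0.07 (-0.14 to -0.01). Itgb1, counted above in pairs with Itga6, Itgav, Itga9 and Itga4, was at -0.01 (-0.06 to 0.03), with 8328 UMIs in WT and 6661 in iKD. Itgb3 had the largest ratio at 0.15 (0.01 to 0.29), from 0.302 (0.283 to 0.322) to 0.336 (0.314 to 0.360). The interval of every one of these genes but Itgb3 lay within 0.14 of 0, short of 0.25. These intervals cover counting error only, and not the spread among cells or between pools, so that they cannot exclude a change. The rare members could not be compared as firmly. Itga4 had 55 UMIs in WT and 21 in iKD with a ratio of -0.57 (-1.37 to 0.18), and Itgal had 2 UMIs in each library.

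Within single clusters, 50 pairs of member and cluster reached the level of 0.05. Of these, 1 was lower by 0.25 or more, beside 15.1% of all 61961 gene and cluster pairs, and 5 were higher, beside 17.4%. The lower pair was Itga4 in qNSC2, with 15 UMIs in 195 WT and 7 in 307 iKD cells, a ratio of -1.64 (-3.17 to -0.26). The higher ones were Itga9 and Itgb3 in qNSC1, Itgb3 and Itga4 in aNSC, and Itgb3 in NSPCs. Itga4 reached the level in 1 library only, WT in qNSC2 (0.112 against 0.0293) and iKD in aNSC (0.0781 against 0.0120), so that its 2 pairs had to differ.

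Itga9 in qNSC1 had a level of 1.12 in WT and 1.59 in iKD cells, with 126 and 184 UMIs and a ratio of 0.50 (0.17 to 0.84). It was 0.51 (0.09 to 0.94) in female and 0.56 (-0.04 to 1.17) in male cells of that cluster. In the other 5 of the 6 clusters the ratio of Itga9 lay between -0.03 in IPC2 and 0.08 in IPC1, so that the difference was seen where Itga9 was lowest. Itgb3 in NSPCs went from 0.270 to 0.349, a ratio of 0.36 (0.08 to 0.63), with 0.29 (-0.03 to 0.61) in female and 0.41 (-0.30 to 1.11) in male cells. Itgb3 in aNSC went from 20 to 30 UMIs, a ratio of 1.31 (0.45 to 2.21). Female cells made up 19.3% of WT and 88.9% of iKD cells of aNSC. In female cells Itgb3 had 2 UMIs in 38 WT and 26 in 96 iKD cells, a ratio of 2.26 (0.26 to 5.38), and in male cells 16 UMIs in 139 WT and 2 in 6 iKD cells, a ratio of 1.57 (-1.59 to 3.66). Itga4 in aNSC rested on 2 and 3 UMIs. Itgb3 in qNSC1 had 22 UMIs in WT and 35 in iKD cells, a ratio of 0.43 (-0.38 to 1.27) whose interval held 0.

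Itgb5 was the member with the most uniform difference. Its ratio was below 0 in each of the 6 clusters, from -0.04 in IPC1 to -0.14 in qNSC1, and the interval held 0 in aNSC only. It was also below 0 in eNB at -0.06 (-0.10 to -0.03), NB at -0.10 (-0.17 to -0.04), IN1 at -0.54 (-0.93 to -0.17) and IN2 at -0.33 (-0.50 to -0.17). The IN1 value rested on 68 UMIs in 9 iKD cells, all female, against 41 WT cells of both sexes. In IN2, microglia markers had a median of 91.2% of WT and 71.3% of iKD cells, so that the cells differed between the libraries. Itgb2 was below 0 in each of the 6 clusters as well, with every interval holding 0, and at -0.20 (-0.31 to -0.08) in eNB. It was above 0 in NB at 0.03 (-0.15 to 0.20), IN1 at 0.56 (-0.37 to 1.41) and IN2 at 0.33 (-0.49 to 1.11). For both genes the size stayed under 0.25 in each of the 8 clusters.

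The sex of the cells, read from Xist and 4 Y-linked genes, differed between the libraries. In the 6 clusters 47.0% of WT and 65.4% of iKD cells were female. Most of the Itgb5 difference in these 6 clusters lay in male cells, where the level was 13.9 in WT and 12.5 in iKD. The ratio there was -0.15 (-0.18 to -0.11). In female cells it was 12.5 and 12.4, a ratio of -0.01 (-0.04 to 0.02). By cluster, the Itgb5 ratio of male cells was -0.35 in IPC1, -0.29 in qNSC2, -0.18 in NSPCs, -0.17 in aNSC, where iKD had 6 male cells, -0.12 in IPC2 and -0.04 in qNSC1. That of female cells was -0.00315 in IPC1, -0.04 in qNSC2 and NSPCs, -0.14 in aNSC and -0.17 in qNSC1. In IPC2 female cells went the other way, at 0.55 (0.16 to 0.97), a value that rested on 55 UMIs in 9 WT cells. The ratio of male cells was the lower in each of the 6 clusters but qNSC1. In eNB the female ratio was the lower, at -0.08 (-0.12 to -0.04) against 0.09 (-0.09 to 0.27) in male cells. In NB the ratios were -0.09 (-0.17 to -0.01) in female and -0.11 (-0.23 to 0.02) in male cells. Over the 8 clusters they were -0.04 (-0.06 to -0.02) in female and -0.13 (-0.17 to -0.10) in male cells.

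Itgam and Itga6 moved the other way with sex. Itgam had a ratio of 0.14 (0.09 to 0.19) in male cells and -0.01 (-0.05 to 0.03) in female cells. Itga6 had 0.12 (0.05 to 0.20) in male and -0.04 (-0.10 to 0.02) in female cells. Itga9 was at -0.03 in male and 0.14 (0.07 to 0.21) in female cells, Itgb3 at 0.30 (0.07 to 0.54) in male and 0.07 (-0.12 to 0.26) in female cells. Itgav was at 0.08 and 0.07 and Itgb2 at -0.07 and -0.09, so these genes had close values in both sexes. Clusters differed in sex too, since 85.7% of IPC2 cells were male and 85.9% of IPC1 cells female, and the parts of sex and cluster in these ratios were not tested.

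**Figure D4:**
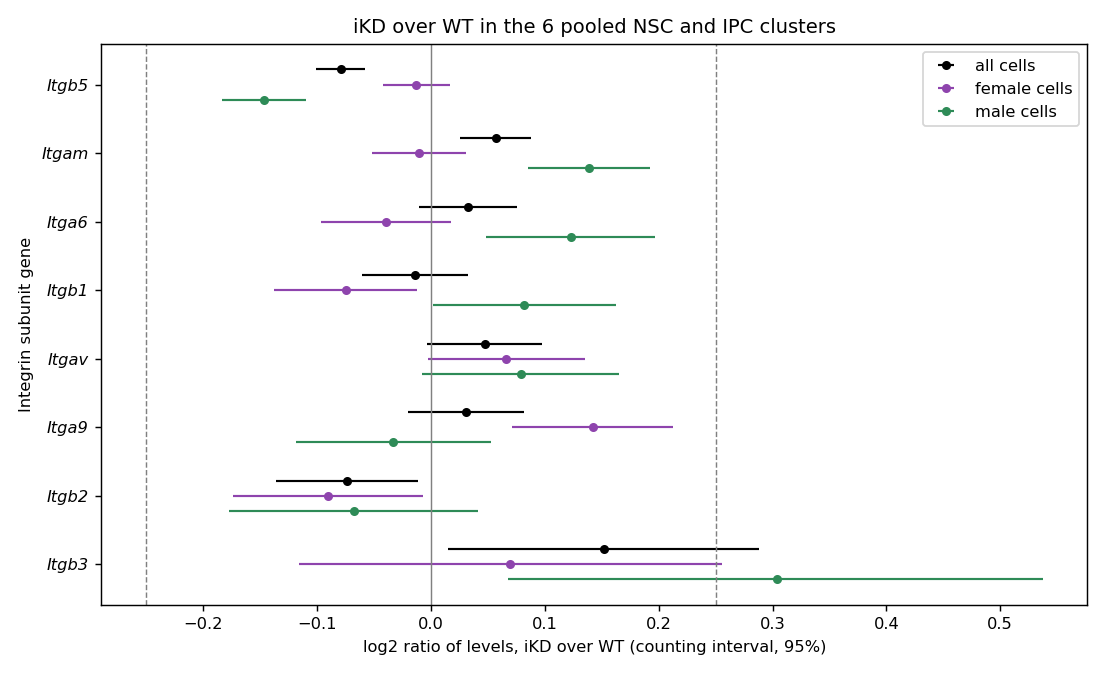
Log2 ratio of levels, iKD over WT (x axis), of 8 integrin subunits (y axis) in the 6 pooled clusters, for all cells (black), female cells (purple) and male cells (green), with bars as 95% counting intervals and dashed lines at a ratio of 0.25 either way. Itgb3 in male cells, at 0.30, was the only point past a dashed line.

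Ttr, a choroid plexus transcript, also differed between the 2 libraries. It had a UMI in 99.7% of iKD and 9.46% of WT cells of the 6 clusters, at levels of 10.2 and 0.137 per 10000 UMIs. The Astrocytes cluster, with its choroid plexus markers, held 130 cells of the iKD library and 4 of the WT library. The source of the Ttr UMIs was not tested, and library and genotype cannot be told apart. With Ttr, Xist, Y-linked and mitochondrial UMIs left out of the denominator, the ratio of each of the 10 members moved by less than its counting interval.

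Other integrin subunits were mostly below the level of 0.05. Of 16 further genes of the family, 3 reached a level of 0.05 in the 6 clusters. None of these 3 differed between genotypes by 0.25 or more, and their median was -0.07. Itgae, the partner of Itgb7 on epithelial cadherin, was at 0.134 over the 12 clusters, the fibronectin receptor Itga5 at 0.115 and the CR3 relative Itgad at 0.0823, all below Itgb3. Itgax, or CD11c, which also pairs with Itgb2, was at 0.0184. Below the level of 0.05 in the 6 clusters, it had a ratio of 0.38 (-0.13 to 0.90), with 61 UMIs in WT and 72 in iKD. Itgax was highest in qNSC1, at 0.294 (0.229 to 0.372) with 69 UMIs in 292 cells, 53.1 times the 0.00553 of IPC2.

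**Figure D5:**
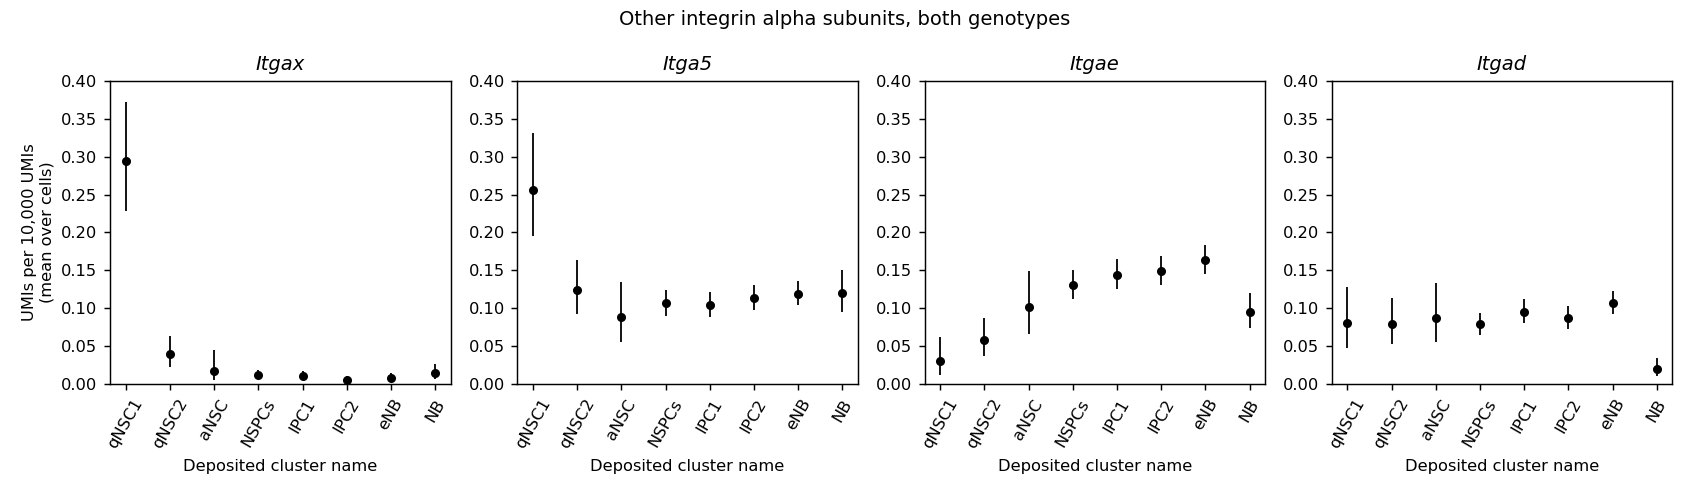
Levels (y axes, mean UMIs per 10000 UMIs) of Itgax, Itga5, Itgae and Itgad in the 8 clusters (x axes), both genotypes together, with exact Poisson intervals. Itgax and Itga5 were highest in qNSC1, at 0.294 and 0.256, and Itgae was lowest there at 0.0300.

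In qNSC1, further subunits lay at an end of their range over the clusters. Itgax had a UMI in 17.5% (13.3 to 22.3) of qNSC1 cells against 0.408% (0.176 to 0.801) in IPC2, and after thinning in 8.07% against 0.361%. Itga5 was at 0.256 (0.195 to 0.331) there and between 0.0888 and 0.124 in the 7 others. Itgam, Itga6, Itga9 and Itgb5 were at their lowest in the same cells, as described above. All 136 cells with an Itgax UMI in the 8 clusters had at least 8 of the 10 microglia markers, and 1 had a border macrophage marker. The genes that work with integrins named next were highest in qNSC1 among the 8 clusters. They had a level of at least 0.05 there and were at least 3-fold above the lowest cluster. This limit was chosen after their values were seen, and the share of all genes past it was not counted. Their values are therefore a description and do not set them apart from other genes. The tetraspanin Cd9 was at 23.0 in qNSC1 and 6.92 in eNB, the tetraspanin Cd63 at 13.1 and 1.92 in IPC2, the urokinase receptor Plaur at 1.16 and 0.0728 in NB, and the Src family kinase Fgr at 0.311 and 0.0207 in IPC2. The ligand osteopontin (Spp1) was at 0.189 against 0.000719 in IPC2, where it had a single UMI. Its qNSC1 level came mostly from the WT library, with 0.322 (0.227 to 0.444) and 37 UMIs in WT against 0.0767 (0.0368 to 0.141) and 10 UMIs in iKD. Vcam1, a ligand of Itga4, was at 0.0761 against 0.00880 in IPC2, and at 1.81 in the iKD cells of the Astrocytes cluster.

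The genes that work with integrins gave the same picture between genotypes. Of 27 activators and cytoplasmic partners, 21 reached the level of 0.05, of which none was lower by 0.25 and 1 was higher, with a median of 0.01. That gene was talin-2 (Tln2), which binds beta tails, at 0.704 in WT and 0.850 in iKD and a ratio of 0.27 (0.18 to 0.35). Next were Lims1, the PINCH adaptor of integrin-linked kinase, at 0.24 (0.20 to 0.28) and Rapgef1, an exchange factor for Rap1, at 0.21 (0.15 to 0.28). Of 7 inhibitors of activation, 5 reached the level and none of these 5 passed 0.25. Rasa3, a brake on Rap1, was at 0.11 and Dok1, which competes with talin, at 0.09, with a median of 0.09.

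Of 28 ligands, 8 reached the level in these cells and none of these 8 passed 0.25, with a median of -0.03. Nrros, which presents latent TGF-beta to Itgav pairs in microglia, was at 0.12 (0.07 to 0.17), the junction molecule F11r at -0.08 (-0.11 to -0.04) and Tgfb1 at -0.04 (-0.09 to 0.00046). All 10 membrane partners reached the level, again with none past 0.25 and a median of -0.01. Cd47, which binds Itgav with Itgb3, was at -0.12 (-0.17 to -0.07), the tetraspanin Cd82 at 0.10 (0.01 to 0.19) and Slc3a2, the CD98 heavy chain that binds beta tails, at 0.09 (0.04 to 0.13). The 5 lists therefore held 1 gene past 0.25 among 47, Tln2, beside the 2.99% and 3.43% of all genes.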

How the data were processed

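Cells were sorted by the authors as EYFP+, captured with the 10x Genomics 3′ chemistry and counted with Cell Ranger 7.0.1, with clustering in Seurat 4.1.1 per the labels. The submitters' processing notes also list CASAVA 1.8.2, HISAT2 2.0.6, Subread and featureCounts and name the genome build GRCh38, a human build, although the deposited symbols are of mouse. The authors' deposited values are natural log (ln) values of 1 plus counts per 10000 UMIs, 1 table per cluster, with genotype in the cell name. Whole UMI counts were recovered for 100% of 32261786 values above 0, within 0.01 of a whole number. The methods state a filter of 2000 to 5000 genes per cell, whereas 496 of the 10804 deposited cells had fewer than 2000. Doublets were not called. The count sheet of the study swaps the names qNSC1 and qNSC2 against the deposited tables, and the names of the tables were used.

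A level is the mean over cells of UMIs per 10000 UMIs. Ratios are log2 of iKD over WT levels with a pseudocount of 0.01, with an interval from the exact binomial limits of both libraries' summed UMIs, placed around the ratio. No test was run, with 1 library per genotype. Genes that reached a level of 0.05 in either genotype were counted against a log2 ratio of 0.25. For shares, cells were thinned to 4500 UMIs, which left out 339 shallower cells of the 10292 in 8 clusters, 99 of WT and 240 of iKD. Female cells had an Xist UMI and none of Ddx3y, Eif2s3y, Uty or Kdm5d, and male cells the reverse. Named beside the members were, from each list, the 3 genes with the largest ratio among those at a level of 0.5 or more, and the 4 further subunits with the highest level. Gene lengths came from GENCODE M21 on GRCm38 by symbol, and 31424 of 32285 symbols matched. The members and lists were chosen with earlier results of these data known. The steps were tested on simulated data. Python 3.11.15, numpy 2.4.6, scipy 1.17.1 and pandas 2.3.3 were used.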

Additional observations from a re-analysis of the deposited data

Results flagged for a closer look

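Itgb1 was the member whose log2 ratio of iKD over WT had opposite signs in female and male cells of the 6 clusters with both counting intervals off 0. It was -0.0749 (-0.14 to -0.01) in female cells, from 2.84 to 2.70 UMIs per 10000, and 0.0821 (0.0016 to 0.16) in male cells, from 2.66 to 2.81. The difference itself was not tested, since each library was a single pool. By cluster, male cells were above 0 in IPC1 at 0.37 (0.06 to 0.68) and IPC2 at 0.07 (-0.03 to 0.17), and below 0 in the 4 others, at -0.07 in qNSC1, -0.06 in qNSC2, -0.21 in aNSC and -0.04 in NSPCs. Female cells were below 0 in NSPCs at -0.12 (-0.23 to -0.01), IPC1 at -0.06 (-0.15 to 0.04), qNSC2 at -0.13 and aNSC at -0.22, and above 0 in qNSC1 at 0.03 and IPC2 at 0.15. Only the intervals of male cells in IPC1 and female cells in NSPCs left out 0.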

How the results depend on the processing

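No paired analysis was possible because each genotype was a single pooled library, and for the same reason no replicate could be left out. The 14 other settings (a pseudocount of 1 or 0.001, summed UMIs, other denominators or scaling, other sets of clusters or cells, thinning) left Itgb2, Itgb5 and Itgb3 on their side of 0, with Itgb5 from -0.15 to -0.01 and Itgb3 from 0.02 to 0.34. Itgam turned to -0.0106 in female cells only and Itgav to -0.0093 in the mean of the 6 ratios within clusters. The others each turned sign in 2 of the 14 settings, Itgb1 reaching 0.08, Itga6 -0.04 and Itga9 -0.03. The number of members higher in iKD by 0.25 or more rose from 0 to 1 in male cells only and in the mean of the 6 ratios within clusters, Itgb3 each time, and the median of the members rose to 0.0806 in male cells only. The number lower by 0.25 or more stayed at 0 in each setting. The number with a 2-fold spread over clusters fell from 2 to 1 in iKD cells only and in female cells only. In WT cells only, Itga9 passed 2-fold as well, from 1.12 in qNSC1 to 2.69 in IPC2, beside Itgb3 and Itga4. Itgb3 went there from 0.131 in aNSC to 0.370 in NB, and Itga4 from 0 in qNSC1 to 0.112 in qNSC2. The cause was not tested. The sex split moved the values of 6 of the 10 members in male cells and 5 in female cells by more than their counting interval. The mean of the 6 ratios within clusters moved 3 of them and the use of all 12 clusters 2, whereas thinning to 4500 UMIs moved none. The median ratio of all genes stayed within 0.02 of 0. Shares of cells depend on depth: Itgb3 had a UMI in 20.2% of cells of the 6 clusters, and 2 or more in 3.46%. Depth limits Itga4 and Itgal, at 76 and 4 UMIs in the 6 clusters.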
